A study of Mus musculus with 1111 samples.

Results

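Sialic acids are acidic sugars at the outer ends of glycans on cell-surface proteins and lipids. Cells activate them to CMP-sialic acid, transferases of the Golgi attach them in different linkages, and sialidases remove them. Siglecs are receptors of immune cells that bind sialylated glycans, and most of them pass on inhibitory signals while some couple to the activating adaptor Tyrobp. Microglia, the resident macrophages of the brain, are known to carry several Siglecs and to meet sialylated glycans on neurons and on proteins from blood.

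Here 10 genes of this system were followed in single microglia, out of 35583 genes in each deposited table. They were the sialyltransferases St8sia6, St8sia4 and St6gal1, the activating enzyme Cmas, the sialidase Neu1, and the receptors Siglech, Siglece, Siglec1, Cd33 and Cd22. The members were listed by name, except that St8sia6 was chosen by its measured level, which was higher in the cells with the most plasma signal. Its differences between groups are therefore a description. So are all values of plasma high set against either other group, as the gene was picked for its rise in plasma high.

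The cells came from brains of mice aged 3 months. All mice had received plasma proteins coupled to the red fluorescent dye NHS-Atto647N, 20 hours before isolation, and the cells were sorted by the fluorescence they held into plasma none, plasma low and plasma high. No group from uninjected mice was among the samples. Strain, sex and genotype were not given in the sources used here. Each cell was 1 library made with Smart-seq2, a full-length protocol without molecular identifiers, so reads are not unique molecules. The labels carry a TH number from 1 to 3, whose meaning is not given, and name no animal. Each group was therefore treated as 1 sample of cells, no test between groups was made, and no p-value is given. All errors marked ± are the SD over the 3 TH numbers, which are 3 sets of wells and not a spread between animals.

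After a filter on depth 987 cells were used, 35.1% of them of plasma none, 35.6% of plasma low and 29.4% (290 cells) of plasma high. Reads of the cells of 1 group and 1 TH number were added up, giving 9 sums of 21309816 to 49323522 reads in genes. Levels are in CPM, the reads of a gene scaled to the reads in all genes of its sum, after these were adjusted by a TMM scaling factor. Levels in single cells are CPM without this factor. Median reads per cell lay between 175699 and 277222 in the 3 sets of plasma none, between 194548 and 359773 in plasma low and between 228822 and 404743 in plasma high. The mitochondrial share of reads was 0.554% to 0.735%, 0.739% to 0.925% and 0.851% to 1.34%, so both moved with plasma signal, and their part in the differences below was not tested except where a value after thinning to equal depth is given. The groups also sat in separate plate columns, 1 to 8 for plasma none, 9 to 16 for plasma low and 17 to 23 for plasma high in the cells used, so column and group cannot be told apart. The cells carried the microglial markers as labelled: 8 of 8 were read in every group, with summed levels of 45540 to 53125 CPM over the 9 sums. Of 8 markers of border-associated macrophages, 6 were at 0 in every group, among them Lyve1, Cd163 and Pf4. Mrc1 was read, with a mean of 0.519 CPM without plasma signal, 9.88 CPM at low signal and 2.06 CPM at high signal. Its highest sum was TH 3 of plasma low, at 22.2 CPM. Cbr2 reached at most 0.715 CPM, in TH 1 of plasma high.

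St8sia6 encodes a transferase that adds a sialic acid to another sialic acid, and its products are known as ligands of Siglec-E in the mouse. The gene lies on the reverse strand of chromosome 2 (start 13651021, end 13794064, mm10). It had 4.57, 0.496 and 13.3 CPM in TH 1, 2 and 3 of plasma none (6.13 ± 6.55). In plasma low it had 28.9, 22.3 and 7.84 CPM (19.7 ± 10.8). In plasma high it had 65.7, 88.5 and 40.1 CPM (64.8 ± 24.2). All 3 sums of plasma high lay above all sums of the other groups, while plasma none and plasma low overlapped through their TH 3 sums.

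The log2 ratio of plasma high over none, taken within each TH number on CPM plus 1, was 3.58, 5.90 and 1.52, with a mean of 3.67 ± 2.19. Its size rested in part on the very low level in TH 2 of plasma none, which held 16 reads of the gene: without TH 2 the mean was 2.55, and without TH 3 it was 4.74. Plasma high against plasma low gave 1.16, 1.94 and 2.22 (1.77 ± 0.55), the most even of its 3 comparisons. Plasma low against plasma none gave 2.42, 3.96 and -0.69 (1.90 ± 2.37), so TH 3 went the other way.

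**Figure D1:**
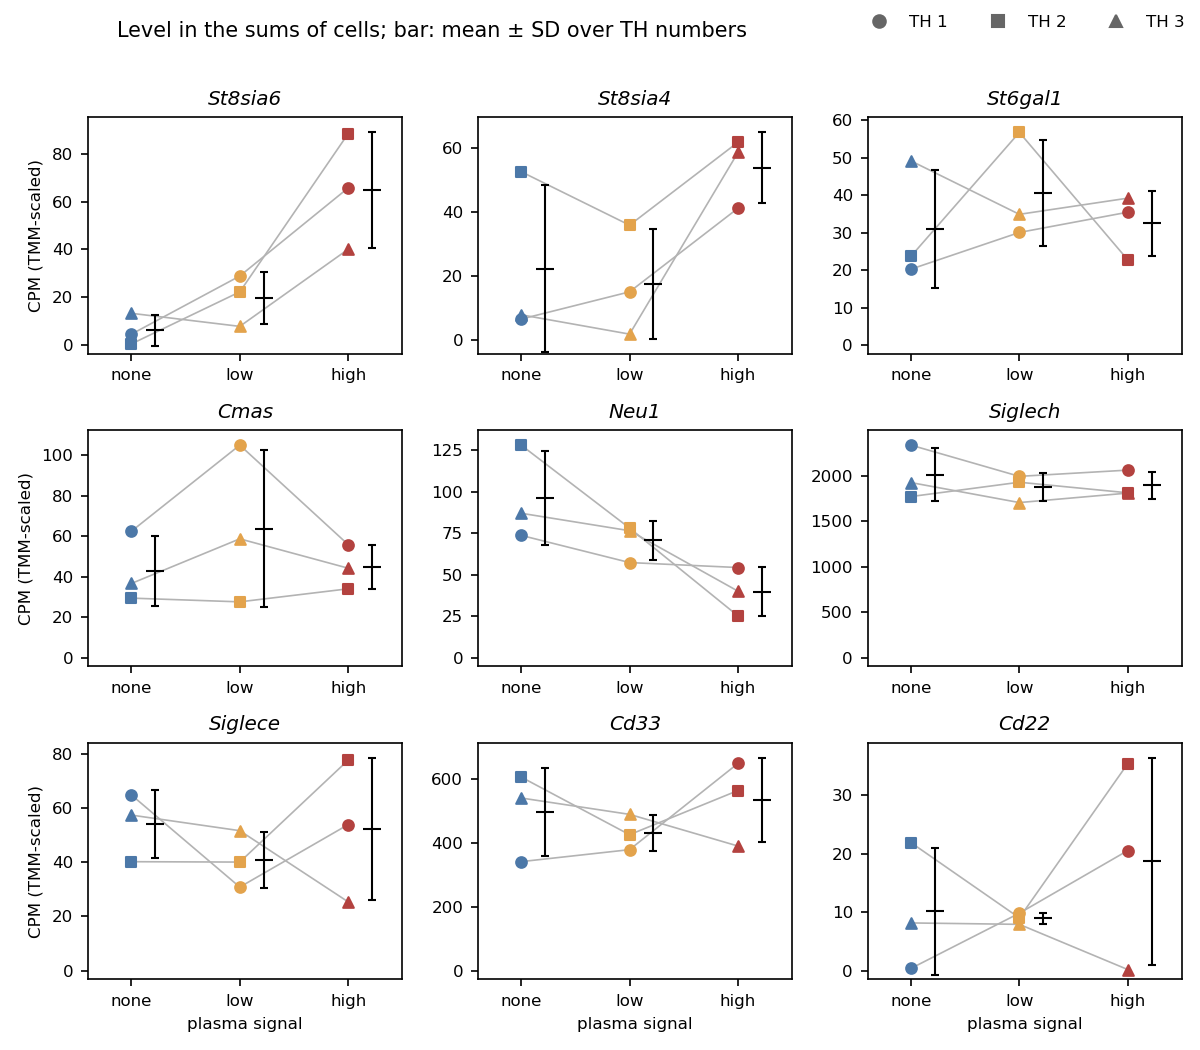
Level of 9 members in the sums of cells, with 1 panel for each gene: the y axis is CPM scaled with TMM factors, and the x axis is plasma signal. Circles, squares and triangles are TH 1, 2 and 3, grey lines join the sums of 1 TH number, and black bars give the mean ± SD over the 3. St8sia6 goes from a mean of 6.13 CPM in plasma none to 64.8 in plasma high, Neu1 from 96.3 to 39.9, and Siglech stays between 1704 and 2334 in the 9 sums. Siglec1 had no reads and is not drawn.

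To see whether such a difference came from more cells with reads or from more reads in those cells, cells with at least 1 read of St8sia6 were counted. There were 9 in plasma none, a share of 2.60% (95% exact Clopper-Pearson interval 1.196% to 4.88%). Plasma low had 11 (3.13%, 1.57% to 5.54%) and plasma high 34 of 290 (11.7%, 8.26% to 16%). These intervals, like all others here, cover counting error only. By TH number the shares of plasma high were 13.9%, 10.4% and 10.8%, all above the highest share of the other groups, 4.27% in TH 2 of plasma low. After each cell was thinned to 50000 reads the shares were 2.02%, 2.85% and 11%, with plasma high again the largest. From plasma none to plasma low the thinned share changed by 0.82, 2.53 and -0.83 points, so TH 3 went the other way.

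Among cells with a read, the median level of St8sia6 was 44.8 CPM for plasma none, 183.04 for plasma low and 199.7 for plasma high. These medians pool the TH numbers, which went different ways: by TH number they were 44.8, 24.9 and 492 CPM for plasma none and 601, 183.04 and 78.2 CPM for plasma low, over 9 and 11 cells in all. The reads were concentrated: the 3 cells with the most reads held 86.5%, 70.7% and 55.1% of the reads of the none, low and high groups. Positive cells of plasma high stood in 13 of 16 plate rows and in 7 of 7 plate columns, at 4.88% to 19% of the cells of a column. A short stretch of its exons is shared with Gm37126, an antisense transcript, and as the use of strand in counting is not given, reads there cannot be assigned to either.

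St8sia4 builds polysialic acid, long chains that are known from Ncam1 and Nrp2. It lies on chromosome 1 (95587682 to 95667571, reverse strand). The sums of plasma none held 6.60, 52.6 and 7.94 CPM (22.4 ± 26.2), those of plasma low 15.1, 35.9 and 1.91 (17.6 ± 17.1) and those of plasma high 41.2, 61.8 and 58.6 (53.9 ± 11.1). The sums of plasma high lay above all those of plasma low, but TH 2 of plasma none, at 52.6 CPM, lay above TH 1 of plasma high. Set over plasma none, the log2 ratio of St8sia4 in plasma high was 2.47, 0.23 and 2.74 (1.81 ± 1.38), and that over plasma low was 1.39, 0.77 and 4.35 (2.17 ± 1.92).

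Cells with a read of St8sia4 were 12, 21 and 24 in plasma none, low and high, or 3.47% (1.80% to 5.98%), 5.98% (3.74% to 9.0%) and 8.28% (5.37% to 12.1%). Plasma high had the larger share than plasma none in 3 of 3 TH numbers, by 2.75, 5.84 and 5.82 percentage points. After thinning they were 2.60%, 4.84% and 7.59%. Of the 54 St8sia6 cells, 5 also had a read of St8sia4 (9.26%, 3.08% to 20.3%), against 52 of the 933 others (5.57%, 4.19% to 7.24%), and these intervals overlap.

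St6gal1, which caps galactose of N-glycans with sialic acid and so makes the glycans that CD22 prefers, showed no order by group. Plasma none had 20.3, 23.7 and 49.1 CPM (31.04 ± 15.8), plasma low 30.1, 56.8 and 34.9 CPM (40.6 ± 14.2) and plasma high 35.5, 22.7 and 39.2 CPM (32.5 ± 8.63). The groups overlapped in all comparisons, and the log2 ratio of plasma high over none was 0.13 ± 0.57. A read was found in 13%, 17.1% and 14.8% of cells. Part of its exons, 200 bases, is shared with BC106179 on the opposite strand.

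Cmas makes CMP-sialic acid, the donor that every sialyltransferase uses. TH 1, 2 and 3 had 62.4, 29.5 and 36.7 CPM of it without plasma signal (42.8 ± 17.3), 104.9, 27.6 and 58.7 CPM at low signal (63.7 ± 38.9) and 55.8, 34.1 and 44.2 CPM at high signal (44.7 ± 10.9). The high mean of plasma low came with 1 set of wells, TH 1, in which 28% of cells had a read (20.1% to 37%), against 12% and 17.2% in TH 2 and TH 3. Over all cells the shares were 9.83% (6.90% to 13.5%), 19.1% (15.1% to 23.6%) and 12.8% (9.14% to 17.2%). Plasma low had the larger share than plasma none in 3 of 3 TH numbers, by 17.6, 4.89 and 5.28 points. The log2 ratios of level were 0.44 ± 0.46 for plasma low and 0.10 ± 0.23 for plasma high, each against plasma none.

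Neu1 encodes the lysosomal sialidase, which trims sialic acids from glycoproteins taken up by the cell and works in a complex with the protective protein Ctsa. It was the only member whose level stepped down from plasma none to low to high in each of the 3 TH numbers. It had 73.8, 128.1 and 87.1 CPM in the sums of plasma none (96.3 ± 28.3). Plasma low had 57.4, 78.2 and 76.6 CPM (70.7 ± 11.6), and plasma high had 54.4, 25.2 and 40.2 CPM (39.9 ± 14.6). All sums of plasma high lay below all sums of both other groups, while those of plasma none and plasma low overlapped.

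The log2 ratio of Neu1 in plasma high over none was -0.43, -2.30 and -1.10, with a mean of -1.28 ± 0.95, or 2.42-fold lower. TH 2 weighed most: without it the mean was -0.77, and without TH 1 it was -1.70. Against plasma low it was -0.08, -1.59 and -0.91 (-0.86 ± 0.76), and without TH 2 -0.50. Plasma low against plasma none gave -0.36, -0.71 and -0.18 (-0.42 ± 0.27), a same-sign difference in 3 of 3 TH numbers, which 11.8% of the 5489 genes compared showed in that direction.

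The share of cells with a read of Neu1 was less ordered than its level. Plasma none had 71 such cells (20.5%, 16.4% to 25.2%), plasma low 66 (18.8%, 14.9% to 23.3%) and plasma high 47 (16.2%, 12.2% to 21%). Within TH numbers plasma high differed from plasma none by 2.34, -12.9 and -2.89 points, so TH 1 had the opposite sign. Among cells with a read, the median level was 455 CPM for plasma none, 345.7 for plasma low and 279.8 for plasma high. After thinning, the shares were 19.1%, 18.2% and 14.5%. The plot of levels in positive cells shows both features.

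**Figure D2:**
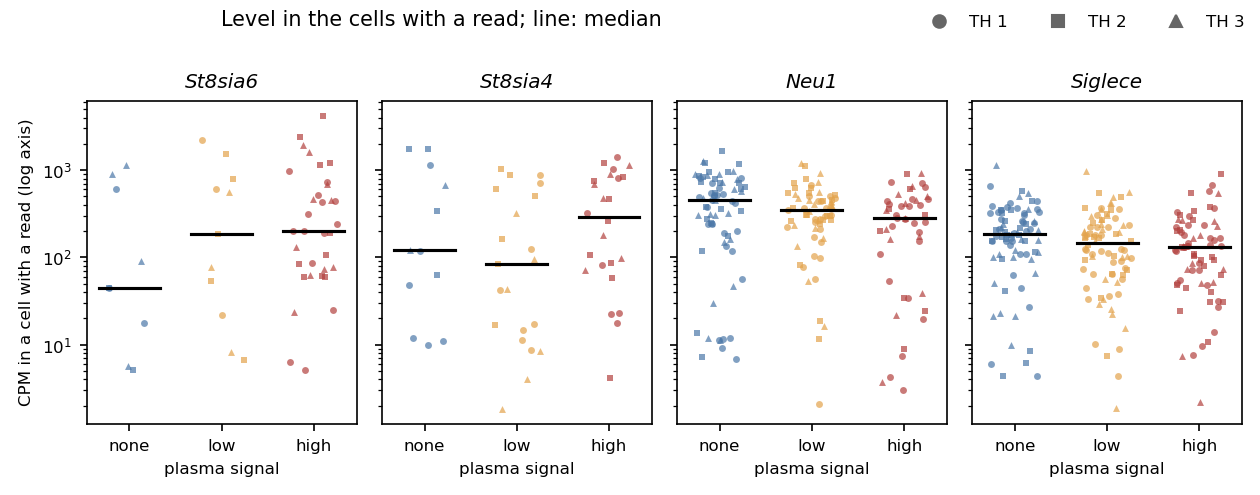
Level of St8sia6, St8sia4, Neu1 and Siglece in each cell with at least 1 read of the gene. The y axis is CPM in the cell on a log scale, the x axis is plasma signal, symbols mark the TH number and black lines the medians. The 34 St8sia6 cells of plasma high reach from 5.07 to 4218 CPM, and the median of Neu1 steps from 455 to 345.7 and 279.8.

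A size rule put these ratios beside those of all genes. It asked that the log2 ratio average 1 or more in size with the same sign in each of the 3 TH numbers. It also asked for 20 CPM or more on average over the sums compared, and for reads in 10% or more of cells of either group, and a gene that met these last demands was compared. For plasma high against plasma none 7 of the 10 members were compared. St8sia6 met the rule as higher and Neu1 as lower, where 5.15% of the 5534 genes compared met it, 3.09% as higher and 2.06% as lower. As St8sia6 was picked for its rise in plasma high, its call is a description only. Without it, 1 of 6 members met the rule, Neu1 as lower. For the same pair, the sums of the groups did not overlap for St8sia6 and Neu1, against 8.51% of genes higher and 5.42% lower. For plasma low against plasma none 0 of 6 members met the rule, against 2.64% of 5489 genes. For plasma high against plasma low 1 of 7 met it, St8sia6, against 3.28% of 5709 genes, or 1.75% in that direction. Without St8sia6, 0 of 6 met it. The sums of that comparison did not overlap for St8sia6 among higher genes (5.20% of all) and for Neu1 among lower ones (4.47%). The 3 comparisons share groups and are not independent of each other.

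St8sia4, Cd22 and Siglec1 were never compared by this rule, and St8sia6 was not compared between plasma low and plasma none. St8sia4 passed the minimum level in each comparison, and it missed the minimum share of cells with at most 8.28%. A gene read in few cells can enter only through a group where it is high, which holds for St8sia6 at 11.7% in plasma high. Without St8sia6, which was picked for its level, the median log2 ratio of the 6 compared members was 0.012 for plasma high and -0.13 for plasma low, each against plasma none, and -0.14 for plasma high against plasma low. With it the first and the last were 0.10 and 0.015. The same medians over all genes compared were 0.054, 0.049 and 0.0056.

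**Figure D3:**
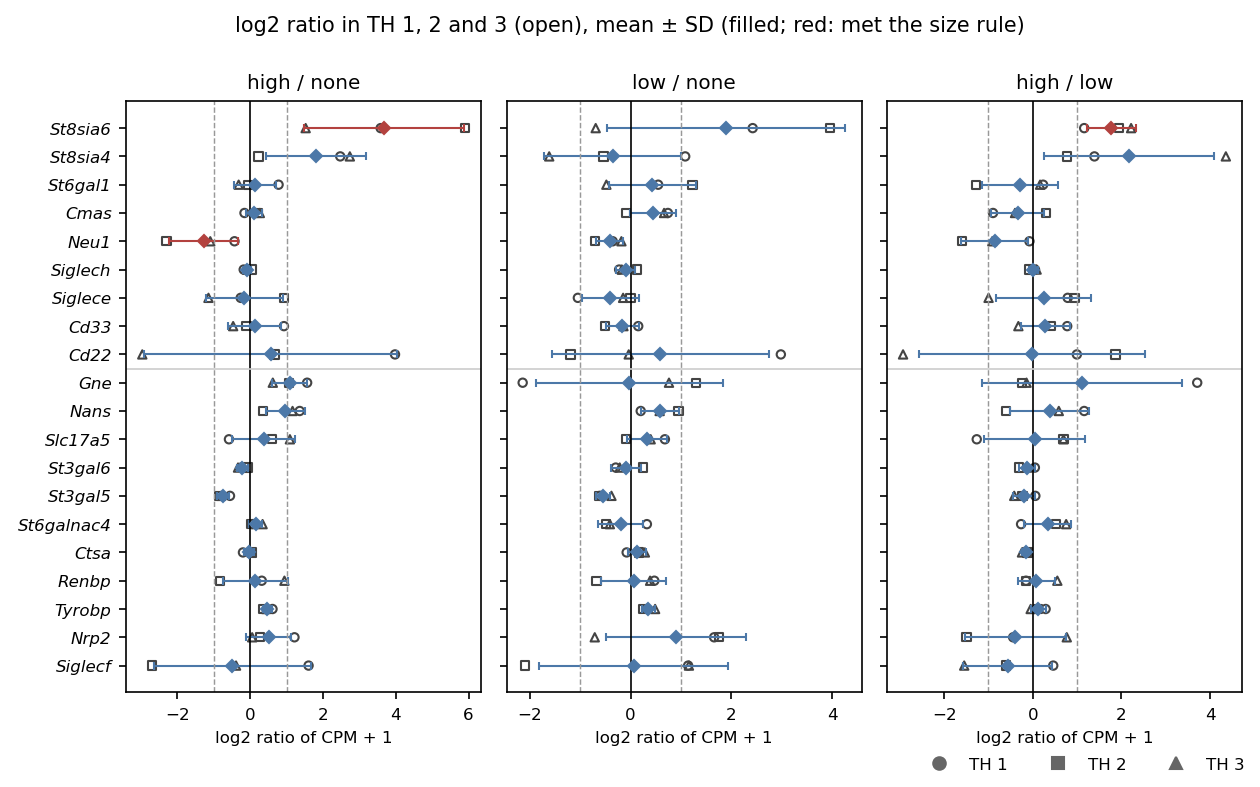
Log2 ratio of CPM plus 1 between groups, with 1 panel for each comparison: members stand above the grey line, other genes of the sialic acid pathway below it. Open circles, squares and triangles are TH 1, 2 and 3, filled diamonds with bars are the mean ± SD, dashed lines mark a ratio of 1 in size, and red marks genes that met the size rule. Red are St8sia6 at 3.67 and Neu1 at -1.28 for high against none, and St8sia6 at 1.77 for high against low.

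Siglech was the receptor read most. It is a microglial marker in the brain that signals through Tyrobp, and outside the brain it marks plasmacytoid dendritic cells. It lies on chromosome 7 (55768178 to 55778925, forward strand). The sums of plasma none had 2334, 1769.6 and 1923 CPM (2009 ± 291.9), those of plasma low 1991, 1927 and 1704 CPM (1874 ± 150.9) and those of plasma high 2059.9, 1811 and 1808 CPM (1893 ± 144.7). The groups overlapped, with log2 ratios of -0.079 ± 0.11 for plasma high and -0.094 ± 0.19 for plasma low against plasma none. A read was found in 98.6%, 97.4% and 97.6% of cells. Of 6 markers of plasmacytoid dendritic cells, Ly6d, Klk1 and Cd209d were at 0 in every group, and the 6 together summed to 2.56 to 16.5 CPM.

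Cd33, an inhibitory Siglec in humans whose gene carries risk variants for Alzheimer's disease, was the next in level, and its mouse form differs from the human one in the cytoplasmic tail. Plasma none had 341.5, 607 and 541 CPM (496 ± 138.1), plasma low 379.1, 426 and 489.8 CPM (432 ± 55.5) and plasma high 649.6, 565 and 390.4 CPM (535 ± 132.1). The sign of the difference from plasma none to high varied with TH number, with log2 ratios of 0.93, -0.10 and -0.47. In TH 1 of plasma high, 1 cell held 21.2% of its reads, at 13811 CPM. A read was found in 81.5%, 78.9% and 78.3% of cells, and the share of plasma high lay below that of plasma none in 3 of 3 TH numbers, by 2.21, 2.82 and 4.63 points. After thinning the sign in TH 1 turned, with differences of 2.58, -1.83 and -9.15 points.

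Siglece is the mouse inhibitory Siglec with the tyrosine motifs that recruit the phosphatases Ptpn6 and Ptpn11. It lies beside Cd33 on chromosome 7 (43651070 to 43660161, with Cd33 at 43524216 to 43544428, both on the reverse strand). It had 64.9, 40.2 and 57.5 CPM in TH 1, 2 and 3 of plasma none (54.2 ± 12.7), 30.9, 40.1 and 51.7 CPM in those of plasma low (40.9 ± 10.4) and 53.9, 77.8 and 25.4 CPM in those of plasma high (52.4 ± 26.2). No order by group was seen, and the widest spread was within plasma high. There 3 cells held 43.6% of the reads. Plasma low had the lower level in 3 of 3 TH numbers against plasma none, by log2 ratios of -1.05, -0.0049 and -0.15, so in TH 2 the groups were level. Cells with a read made up 23.1% (18.8% to 27.9%), 23.4% (19% to 28.1%) and 24.8% (20% to 30.2%).

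Cd22, best known as an inhibitory receptor of B cells for sialic acids placed by St6gal1, was rare. The 3 sums held 0.369, 21.9 and 8.16 CPM of it for plasma none (10.2 ± 10.9), 9.83, 9.03 and 7.92 CPM for plasma low (8.93 ± 0.96) and 20.6, 35.5 and 0.172 CPM for plasma high (18.7 ± 17.7). Sums of plasma none and plasma high spanned each other, and the log2 ratio between them ran from -2.97 to 3.98. Cells with a read were 12, 17 and 16, or 3.47%, 4.84% and 5.52%. The B-cell genes Cd79a, Ms4a1 and Pax5 were at 0 in every group, while Cd79b was read in 9 of 9 sums, at 22.6 to 82.9 CPM, and its bearing on the Cd22 reads was not tested. Reads of Siglech were found in 45 of 45 cells with a Cd22 read and in 97.8% of the other cells. The antisense transcript Gm29439 overlaps 479 exon bases of Cd22, and reads there cannot be assigned without strand.

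Siglec1, or sialoadhesin, is carried by macrophages of the brain's borders and of other tissues. It had 0 reads in the 987 cells used, which allows a share of cells with a read of up to 0.304% and a level of up to 0.0106 CPM over 282054715 reads. It also had 0 reads in the 1045 cells before the filter.

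**Figure D4:**
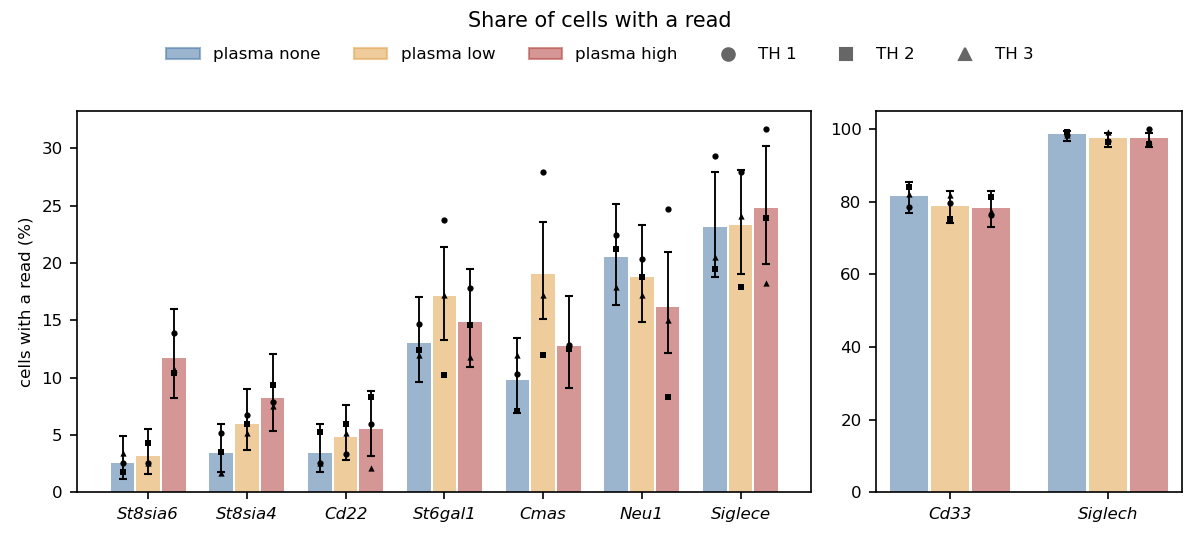
Share of cells with at least 1 read of a member, in percent, for plasma none, low and high. Bars are all cells of a group with 95% exact intervals for counting error, and black symbols are TH 1, 2 and 3; the right panel has its own scale for Cd33 and Siglech. St8sia6 stands at 2.60%, 3.13% and 11.7%, St8sia4 at 3.47%, 5.98% and 8.28%, and Siglech at 98.6%, 97.4% and 97.6%.

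Across genes, levels were compared per kilobase of exon, as full-length libraries give longer genes more reads. The mean over the 9 sums was 569 CPM per kilobase for Siglech and 62.8 for Cd33, each above the next gene in 9 of 9 sums. Siglece followed at 26.6, Neu1 at 18.5, Cmas at 10.7, St6gal1 at 7.06, St8sia6 at 3.94, Cd22 at 2.5 and St8sia4 at 1.56 CPM per kilobase. From Siglece to St8sia4 each gene overlapped its neighbour in the order: Siglece lay above Neu1 in 8 of 9 sums, and every later gene above the next in 7 of 9. St8sia6 had the largest change of place. It stood at 0.799 ± 0.85 CPM per kilobase for plasma none, below St8sia4 and Cd22 at 1.11 ± 1.3 and 2.01 ± 2.2, and at 8.45 ± 3.2 in plasma high, beside St6gal1 at 6.61 ± 1.8. Neu1 stood at 25.8 ± 7.6, 18.9 ± 3.1 and 10.7 ± 3.9 CPM per kilobase for none, low and high, near Siglece without plasma signal and near Cmas at high signal.

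Within plasma high, cells with and without reads of St8sia6 were compared as a description, with median reads per cell of 301991 and 260347. Siglece was read in 7 of 34 St8sia6 cells (20.6%, 8.70% to 37.9%) against 65 of the other cells (25.4%, 20.2% to 31.2%), and Cd33 in 79.4% against 78.1%. Siglech was read in 34 of 34 and in 97.3%. The level of Siglece pooled over cells, without TMM factors, was 20.8 CPM in the St8sia6 cells and 61.4 CPM in the others. In plasma low the shares of Siglece had the other order, 5 of 11 St8sia6 cells (45.5%, 16.7% to 76.6%) against 22.6% (18.3% to 27.5%). In plasma high, Neu1 was read in 6 of the 34 (17.6%, 6.76% to 34.5%) and in 16% of the others. Apoe, the lipid carrier whose level was also higher in plasma high, was added after its values were seen. It had a read in 15 of 34 St8sia6 cells (44.1%, 27.2% to 62.1%) and in 64 others (25%, 19.8% to 30.8%), with the same shares after thinning, and the intervals overlap.

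The genes whose levels were most like St8sia6 over the 9 sums were sought among 5761 genes, by the Pearson correlation of log2 CPM plus 1. They were Sord, the sorbitol dehydrogenase (r = 0.957, Spearman rho = 0.983), Hnrnpf, an RNA-binding protein (r = 0.953, rho = 0.95), and Clta, a clathrin light chain (r = 0.952, rho = 0.883). The 9 sums share 3 groups and 3 TH numbers, and these are the top values of many, so they are given as a description only. Sord had 15.7 ± 11.8 CPM without plasma signal, 29.1 ± 2.60 at low and 49.5 ± 8.26 at high signal. The range of the other genes was narrower, with 86.1 ± 10.2, 100.6 ± 9.48 and 112.4 ± 7.99 CPM for Hnrnpf and 379.5 ± 56.6, 428 ± 22.2 and 469 ± 45.6 CPM for Clta.

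A further 45 genes of sialic acid synthesis, transfer, removal and recognition were read beside the members. Of these, 11 had 0 reads, 8 lay above 0 and under 5 CPM, 3 at 5 to under 20 CPM and 23 at 20 CPM or more. In plasma high against plasma none 16 were compared and 0 met the size rule, against 5.15% of all genes. In the other comparisons, low against none and high against low, 15 and 16 were compared and again 0 met it, against 2.64% and 3.28%. Their median log2 ratios of 0.071, 0.060 and 0.018 lay near the 0.054, 0.049 and 0.0056 of all genes compared.

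In synthesis and transport, Gne, the enzyme that starts sialic acid synthesis, had 20 ± 8.85, 30.7 ± 25.4 and 41.7 ± 8.71 CPM for none, low and high, the order of groups in all triples below. Its log2 ratio of plasma high over none was 1.56, 1.06 and 0.62 (1.08 ± 0.47), but it was read in too few cells to be compared, 7.93% of plasma high. Nans, the next enzyme of the path, was picked out after its values were seen, and had 13.1 ± 0.96, 20.6 ± 6.23 and 27.3 ± 8.88 CPM. Slc17a5, which exports sialic acid from the lysosome, had 38.6 ± 6.29, 48.5 ± 5.61 and 57.3 ± 31.6 CPM.

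Among the other transferases, St3gal6, which places sialic acid on galactose, was the most abundant. It had 684.5 ± 79.1, 645 ± 82.1 and 589.5 ± 60.4 CPM. St3gal5, the GM3 ganglioside synthase, was picked out after its values were seen: its sums held 290.05, 340.3 and 328.1 CPM for plasma none (319.5 ± 26.2), 189.2, 219.6 and 251.6 CPM for plasma low (220.1 ± 31.2) and 196.9, 187.05 and 187.8 CPM for plasma high (190.6 ± 5.48). Its sums in plasma none lay above all others, with log2 ratios of -0.56, -0.86 and -0.80 for plasma high (-0.74 ± 0.16) and -0.54 ± 0.14 for plasma low, short of the size rule. For plasma high against plasma none, 5.42% of the 5534 genes compared lay lower without overlap, and 1 of the 16 pathway genes compared. The share of all genes for plasma low is not given here. St6galnac4 had 149.1 ± 12.4, 132.4 ± 32 and 166.05 ± 27 CPM. No relative of St8sia6 other than St8sia4 reached the minimum level of the size rule: St8sia1 averaged 1.0 CPM, and St8sia2, St8sia3 and St8sia5 had 0 reads. St8sia4 missed the minimum share of cells.

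On the side of removal and breakdown, Ctsa, the partner that stabilises Neu1 in the lysosome, did not follow its order, with 1477 ± 326.9, 1601 ± 311.9 and 1439 ± 331.97 CPM. The sialidases Neu2 and Neu4 had 0 reads, and Neu3 averaged 1.76 CPM. Renbp, the renin-binding protein that interconverts acetylated hexosamines, had 92.6 ± 38.5, 92.04 ± 11.3 and 99.01 ± 25.6 CPM.

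In recognition, Tyrobp, the adaptor of Siglech, had 626 ± 106.3, 799 ± 131.99 and 878 ± 230.95 CPM, with log2 ratios of plasma high over none of 0.61, 0.36 and 0.44 (0.47 ± 0.13), short of the size rule. Siglecf, the most abundant Siglec outside the members, had 36.3 ± 34.5, 30.96 ± 16.3 and 29.01 ± 33.5 CPM and differed more between TH numbers than between groups. Of the polysialic acid carriers, Nrp2 had 19.2 ± 9.72, 37.4 ± 18.2 and 26.4 ± 6.86 CPM, and Ncam1 averaged 0.96 CPM.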

How the data were processed

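The authors deposited raw read counts by gene and cell in 1 table for every TH number. Per the file headers, each value is a mean beside a number of probes. In 1 column of TH 3, 2 deposited values were not whole, so that it was treated like estimated counts and rounded. Per the submitters' processing notes, bcl2fastq, Trim Galore, STAR 2.5.3a and Seurat were used with mm10. Per the file headers, TH 2 and TH 3 came from top-hit alignments only, with no such note for TH 1. How reads were counted, and whether by strand, is not given in the sources used here. Of 1111 labelled cells, 1045 were matched to a column by well and TH number, and the other 66 were not analysed here.

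A cell was used with at least 50000 reads in genes and 500 genes with a read, which left 987. Cells were sorted singly, so no doublet caller was run. Sums were scaled to CPM with TMM factors of edgeR 4.0.16 in R 4.3.3, and no edgeR test was run. The log2 ratio used a pseudocount of 1 CPM, which understates changes of low genes. The procedure was tested on simulated sums with known changes, in which every gene met the demand on the share of cells. That test does not cover genes read in few cells. Alternatives were library size scaling, size factors of DESeq2 1.42.0, pseudocounts of 0.5 and 5 CPM, no or a stricter cell filter (100000 reads and 1000 genes), thinning, leaving out the top cell of each sum, leaving out each TH number, and no filter on low values. Coordinates are those of the tables, and exon lengths and overlaps come from GENCODE M21 (GRCm38). St6galnac2 stood on more than 1 row and was left out of the pathway list.

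The members and lists were chosen with earlier results of these data known. Named were the members, pathway genes that met the size rule (none did), the pathway gene with the highest mean CPM of each role and the 3 genes most like St8sia6. Genes named beyond this rule (Nans, St3gal5, Apoe and genes at or near 0) were chosen after their values were seen.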

Additional observations from a re-analysis of the deposited data

How the results depend on the processing

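The log2 ratios were taken within TH numbers, which pairs the groups. As no test was run, TH number did not enter one as a block. Over the alternatives, St8sia6 stayed higher and Neu1 lower in plasma high against plasma none in 11 of 11 settings, with log2 ratios of 2.55 to 4.74 and of -1.70 to -0.77. Neu1 was under the size rule without TH 2 and at -1.002 after thinning. St8sia6 in plasma high against plasma low was 2.46 when its top cell was dropped from every sum. Of the 30 log2 ratios of members, 30 kept their sign with DESeq2 size factors, 29 with library size scaling, 28 after thinning, 27 without the top cell, and 24, 27 and 26 without TH 1, 2 and 3. Each of these counts includes the ratios of Siglec1, which were 0 in every setting and so had no sign to change. Signs that changed belonged to St8sia4, St6gal1, Siglech, Siglece, Cd33 and Cd22. Of the genes compared, 5.15%, 2.64% and 3.28% met the size rule for high against none, low against none and high against low. After thinning they were 3.48% for high against none and 2.06% for high against low, out of 5122 and 5345 genes. Without a filter on low values they were 8.35%, 6.56% and 6.81%, which adds genes of very few reads. Leaving out 1 TH number, which asks for the same sign in only 2 sets, gave 8.54% to 11.3%, 5.93% to 6.96% and 7.35% to 8.03%. Cd22, St8sia4 and St8sia6 were each read in at most 11.7% of the cells of a group, so their levels rest on few cells. Thinning took the share of plasma high from 11.7% to 11% for St8sia6 and from 14.8% to 12.1% for St6gal1.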

Other observations

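Cells carried reads of few members at once. The median was 2 members in a cell of plasma none and 3 in plasma low and plasma high, and after thinning the means were 2.43, 2.53 and 2.53. The highest number was 7 of the 10, in plasma low.

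In plasma high, St6gal1 was read in 17 of 72 Siglece cells (23.6%, 95% exact interval 14.4% to 35.1%) and in 26 of the other cells (11.9%, 7.94% to 17%). After thinning these shares were 18.1% and 10.1%. Plasma low had the other order, 15.9% and 17.5%. Over all groups the shares were 18.4% (13.6% to 23.9%) and 13.9% (11.5% to 16.6%). Before thinning, the intervals overlap in each of these cases. Cd22 was read in 6.41% of Siglece cells (3.63% to 10.4%) and in 3.98% of the 753 others (2.70% to 5.64%). The cells of a group share wells and plates, the pairs were looked at after other results were known, and no test was made.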
